A study of Homo sapiens with 2 samples.

Results

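miR-193a, miR-193b and miR-365 are microRNAs (miRNAs, short RNAs that guide silencing of messenger RNAs) made from a pair of related loci, each holding a miR-193 hairpin and a miR-365 hairpin. Their assays were taken by name from a quantitative PCR card, and 3 of its 366 assays (RNU48, the endogenous control, included) bore these names, 1 assay each. The card was run on ANGPTL1-overexpressing CL1-5 cells and on CL1-5 cells carrying the empty vector pcDNA3.1, with 1 RNA sample of each. CL1-5 is a highly invasive human lung adenocarcinoma line, and ANGPTL1 is a secreted angiopoietin-like protein. Both cell populations had been selected for 4 weeks with the antibiotic G418, and stable cells were used. Whether either was a single clone or a pool is not given in the sources used here. The design asked which miRNAs differ between the ANGPTL1 cells and the vector control. With 1 sample per group no difference has a replicate error or a test, and each is a difference between these RNA preparations only. The assays were chosen by name, but the set of 3 was proposed with their threshold cycles and ratios in these same samples already known, so what follows is a description.

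A miRNA hairpin is cut into a short duplex, 1 strand of which is loaded into an Argonaute protein and finds messenger RNAs mainly through its seed. miR-193a and miR-193b have the same seed and are described as growth-restraining in several carcinomas, with CCND1 (cyclin D1) and PLAU (urokinase) among the described targets of miR-193b and KIT, ERBB4 and MCL1 among those of miR-193a. miR-365 is described to target NKX2-1, a lineage transcription factor of the lung, and the cytokine gene IL6. In mouse, a role in brown fat differentiation has been described for the miR-193b and miR-365 cluster.

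The mature sequences are shown because they bear on what each assay can tell apart. The assay names carry no arm; in the naming of that period the plain names stood for the strands now written 3p, and the assays' own primer sequences were not used here. The sequences are those of RefSeq on GRCh38.p14, read 5′ to 3′, with the seed (bases 2 to 8) in capitals.
miR-193a-3p: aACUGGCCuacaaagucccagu
miR-193b-3p: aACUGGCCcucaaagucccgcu
miR-365a-3p: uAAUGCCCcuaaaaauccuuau
miR-365b-3p: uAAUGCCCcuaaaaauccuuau

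miR-193a-3p and miR-193b-3p were identical at 18 of 22 positions. Counted from 1 at the 5′ end, the changes from miR-193a to miR-193b were U9C, A10U, A20G and G21C, so the seed was shared and the differences lay in the middle and at the 3′ end. The 3′ end is where the stem-loop primers of this assay type pair in reverse transcription. Whether the miR-193a and miR-193b assays read each other's target was not tested. miR-365a-3p and miR-365b-3p were identical over all 22 bases, so the single miR-365 assay reads the product of both loci together. Among 2370 mature miRNA names in the RefSeq table, the seed ACUGGCC stood in miR-193a-3p and miR-193b-3p and in no other. The seed AAUGCCC stood in miR-365a-3p and miR-365b-3p and in no other. As DNA letters, the 7 bases that pair with these seeds are GGCCAGT for miR-193 and GGGCATT for miR-365, so the cluster partners have different target sites.

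The hairpins are shown with the 3p strand in capitals, to set apart what the paralogs share from what they do not. In the GRCh38.p14 annotation, MIR193A lies at chr17:31559996-31560083 and MIR365B at chr17:31575411-31575521, while MIR193B lies at chr16:14303967-14304049 and MIR365A at chr16:14309285-14309371, all on the plus strand.
MIR193A: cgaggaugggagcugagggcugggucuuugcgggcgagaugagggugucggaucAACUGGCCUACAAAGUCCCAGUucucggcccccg
MIR365B: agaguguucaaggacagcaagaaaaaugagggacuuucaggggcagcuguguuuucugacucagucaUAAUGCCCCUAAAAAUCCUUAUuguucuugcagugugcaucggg
MIR193B: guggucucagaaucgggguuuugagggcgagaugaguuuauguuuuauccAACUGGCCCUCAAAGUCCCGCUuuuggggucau
MIR365A: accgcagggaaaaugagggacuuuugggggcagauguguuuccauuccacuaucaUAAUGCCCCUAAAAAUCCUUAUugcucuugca

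The opposite strands also share stretches between paralogs. The longest run shared by the 5p strands of miR-193a and miR-193b was gggcgagauga, 11 bases, and that of the 5p strands of miR-365a and miR-365b was agggacuuu, 9 bases. The spacing of the loci differed too. On chromosome 16, 5235 bases separate MIR193B from MIR365A, no other annotated gene lies between them, and both lie within the long non-coding RNA gene MIR193BHG. On chromosome 17, 15327 bases separate MIR193A from MIR365B, with MIR4725 and the pseudogene RNU6ATAC7P in between, and the annotated non-coding gene MIR365BHG holds MIR365B but not MIR193A.

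**Figure D1:**
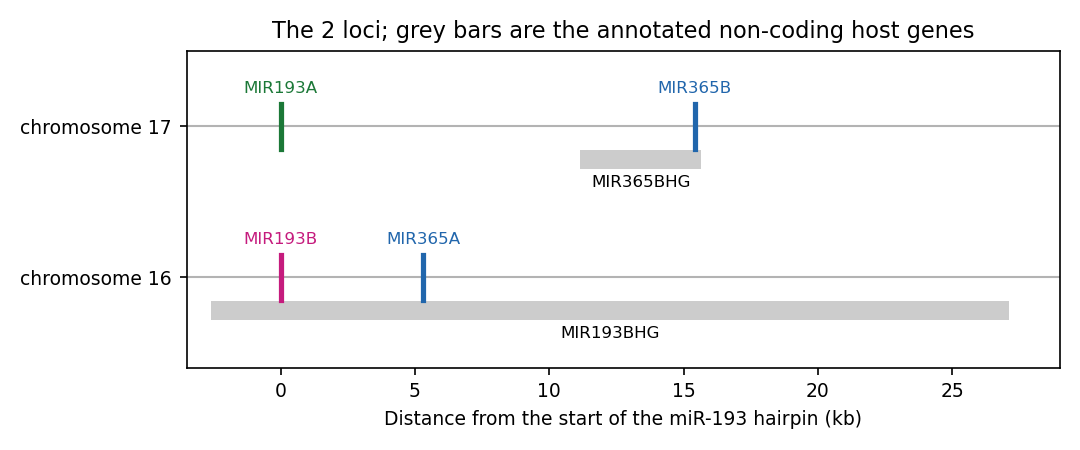
The 2 loci in the GRCh38.p14 RefSeq annotation, drawn to scale along the horizontal axis as distance in kb from the start of the miR-193 hairpin. Coloured marks stand at hairpin starts and grey bars are the non-coding genes MIR365BHG and MIR193BHG, of which only MIR193BHG spans both hairpins of its locus.

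The assays report a threshold cycle, the point in the PCR at which the fluorescence signal rises past a fixed threshold; 1 cycle earlier means about 2 times the template if every cycle doubles it. A miRNA counted as detected below cycle 35 of 40. All 3 assays were detected in ANGPTL1 cells, and miR-193a and miR-365 but not miR-193b were detected in control cells. Over the card, 43.3% of the miRNA assays were detected in ANGPTL1 cells, 43.0% in control cells and 39.7% in both. The small nucleolar RNA RNU48, against which levels are set, crossed at cycle 21.21 in ANGPTL1 cells and 20.79 in control cells.

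miR-365, the product of both loci, had the earliest cycles, 27.34 in ANGPTL1 cells and 27.06 in control cells. It ranked 46 among the 158 miRNAs detected in ANGPTL1 cells and 49 among the 157 detected in control cells, counted from the earliest cycle. Both cycles were more than 7 cycles ahead of the limit. After subtraction of the RNU48 cycle (delta Ct), miR-365 stood at 6.13 in ANGPTL1 cells and 6.27 in control cells.

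miR-193a, from chromosome 17, crossed at cycle 29.85 in ANGPTL1 cells and 29.41 in control cells. It ranked 79 of 158 in ANGPTL1 cells and 83 of 157 in control cells, near the middle of the detected miRNAs, and stood 5.15 cycles ahead of the limit in ANGPTL1 cells and 5.59 in control cells. Its delta Ct was 8.64 in ANGPTL1 cells and 8.62 in control cells.

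miR-193b, from chromosome 16, crossed at cycle 33.70 in ANGPTL1 cells and 35.18 in control cells. The control value lay 0.18 cycles past the detection limit and short of the last cycle, so the control amplified late rather than not at all. In ANGPTL1 cells it ranked 136 of the 158 detected miRNAs. Its delta Ct was 12.49 in ANGPTL1 cells and 14.39 in control cells.

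**Figure D2:**
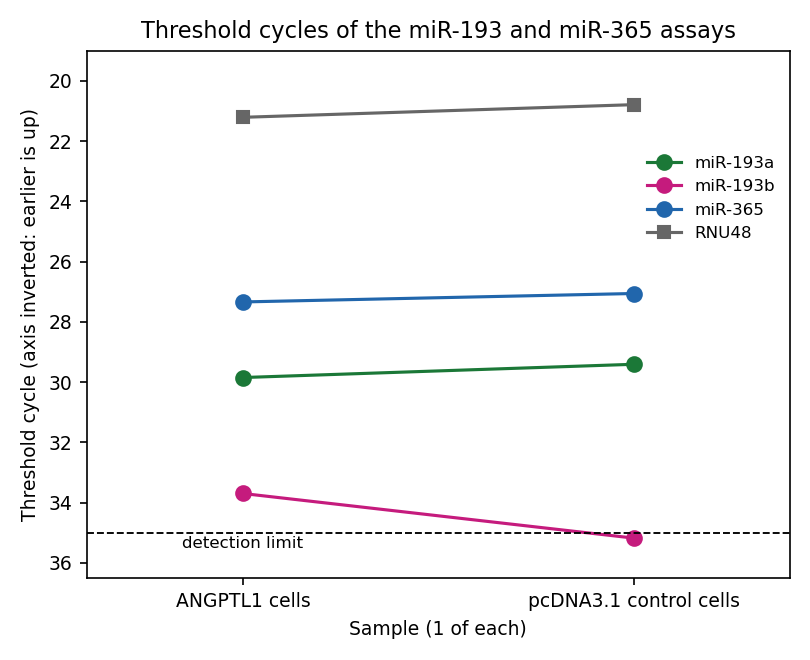
Threshold cycle of each assay (vertical axis, inverted so that more template is higher) in the ANGPTL1 sample and the control sample, with RNU48 for scale and the detection limit of 35 as a dashed line. miR-365, miR-193a and RNU48 crossed slightly later in ANGPTL1 cells, whereas miR-193b crossed at 33.70 there and at 35.18 in control cells.

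In both samples the order was miR-365, then miR-193a, then miR-193b. Cycles of different assays depend on their primers as well as on template, so the gaps between them are not ratios of molecules, but the same gap can be compared between samples and needs no reference RNA. miR-193a followed miR-365 by 2.51 cycles in ANGPTL1 cells and 2.35 cycles in control cells, a difference of 0.16. miR-193b followed miR-193a by 3.85 cycles in ANGPTL1 cells and 5.77 cycles in control cells, a difference of 1.92. miR-193b followed miR-365 by 6.36 cycles in ANGPTL1 cells and 8.12 cycles in control cells, a difference of 1.76. The miR-193a to miR-365 gap was thus nearly the same in the 2 samples, and both gaps that involve miR-193b were narrower in ANGPTL1 cells.

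Set against RNU48, the log2 ratio (the control delta Ct minus the ANGPTL1 delta Ct; a positive value means more in ANGPTL1 cells) was -0.02 for miR-193a, a 1.01-fold lower level in ANGPTL1 cells. For miR-365 it was 0.14, a 1.10-fold higher level. Both lay well within 2-fold, as did 87.6% of the 145 miRNAs detected in both samples, of which 7.59% were higher by at least 2-fold in ANGPTL1 cells and 4.83% lower by as much. Only 5 of the 145 had a ratio closer to 0 than miR-193a, and 30 had one closer to 0 than miR-365. Without RNU48 the ratios were -0.44 for miR-193a and -0.28 for miR-365, so the sign for miR-365 depends on the reference, while miR-193a was below 0 with and without it and its size depends on it. Of the 145 miRNAs, 11 were past 2-fold on the higher side and 7 on the lower side relative to RNU48, against 6 and 29 without it. RNU48 itself crossed 0.42 cycles later in ANGPTL1 cells. As bulk RNA was measured, a change in the number of cells making a miRNA and a change in its amount per cell cannot be told apart.

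For miR-193b, with the late control cycle set to the limit of 35, the log2 ratio was at least 1.72, or at least 3.29-fold higher in ANGPTL1 cells. From the cycles as deposited it was 1.90, and the authors' deposited table gives 3.73-fold. Without RNU48 the bound was 1.30, so it stayed past 2-fold and did not change sign. In uncorrected cycles miR-193b was the only one of the 3 to cross earlier in ANGPTL1 cells, by 1.48 cycles, while miR-193a and miR-365 crossed later there by 0.44 and 0.28 cycles.

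**Figure D3:**
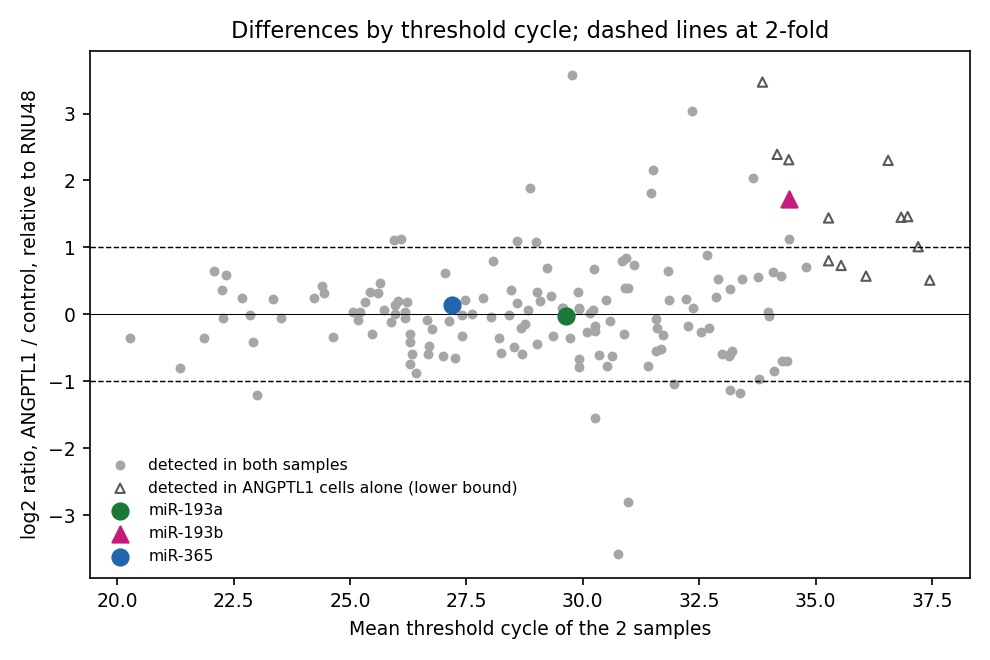
The log2 ratio relative to RNU48 (vertical axis) against the mean threshold cycle of the 2 samples (horizontal axis) for 145 miRNAs detected in both samples (grey) and 13 detected in ANGPTL1 cells alone (triangles, lower bounds). The 12 detected in control cells alone are not drawn. miR-365 and miR-193a lie close to 0 among miRNAs of similar cycle, and miR-193b, a bound of 1.72, lies at the late end, where the points spread more widely.

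The spread among assays of similar cycle gives the setting for these values. Within 1 cycle of miR-365 in mean cycle, 22 other miRNAs were detected in both samples, with log2 ratios from -0.87 to 0.80 and 0 of them past 2-fold. Their interquartile range lay between -0.56 and -0.0025, so miR-365 at 0.14 was above it. Within 1 cycle of miR-193a there were 32, with ratios from -1.55 to 3.58, of which 4 were past 2-fold. Their interquartile range, from -0.33 to 0.23, included miR-193a.

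Around miR-193b the spread was wider. Of 23 other miRNAs with a mean cycle within 1 of its own that amplified before cycle 40 in both samples, 9 (39.1%) were at least 2-fold apart by the deposited cycles, 7 (30.4%) of them higher in ANGPTL1 cells and 2 lower. Their log2 ratios ran from -3.35 to 4.24, and the interquartile range from -0.72 to 1.44. The 1.90 of miR-193b was above that range, and 5 of the 23 were at least as high.

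The detection of miR-193b in ANGPTL1 cells alone can be read the same way. In all, 13 miRNAs (3.56% of those measured) passed the limit in ANGPTL1 cells alone and 12 (3.29%) in control cells alone. Among the 13, miR-193b had the control cycle closest to the limit, and its bound ranked 5 from the highest. Of these miRNAs 4 stood at cycle 40 in control cells, 9 had a bound of at least 2-fold, and the bounds ran from 0.51 to 3.47 with a median of 1.45. With the control cycle set to 35, the ANGPTL1 cycle alone orders these bounds. Picking assays this way puts every bound above 0.42, the RNU48 difference between the samples. Nothing further is read from their size or rank. Of the 17 miRNAs with a control cycle from 35 to 36, miR-193b among them, 5 were detected in ANGPTL1 cells and 6 stood at cycle 40 there. The 17 spanned cycles 31.95 to 40 in ANGPTL1 cells with a median of 36.32, and miR-193b had the fourth earliest cycle. In the reverse direction, of 14 miRNAs with a cycle from 35 to 36 in ANGPTL1 cells, 4 were detected in control cells. Assays near the limit thus crossed it in both directions between these samples.

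**Figure D4:**
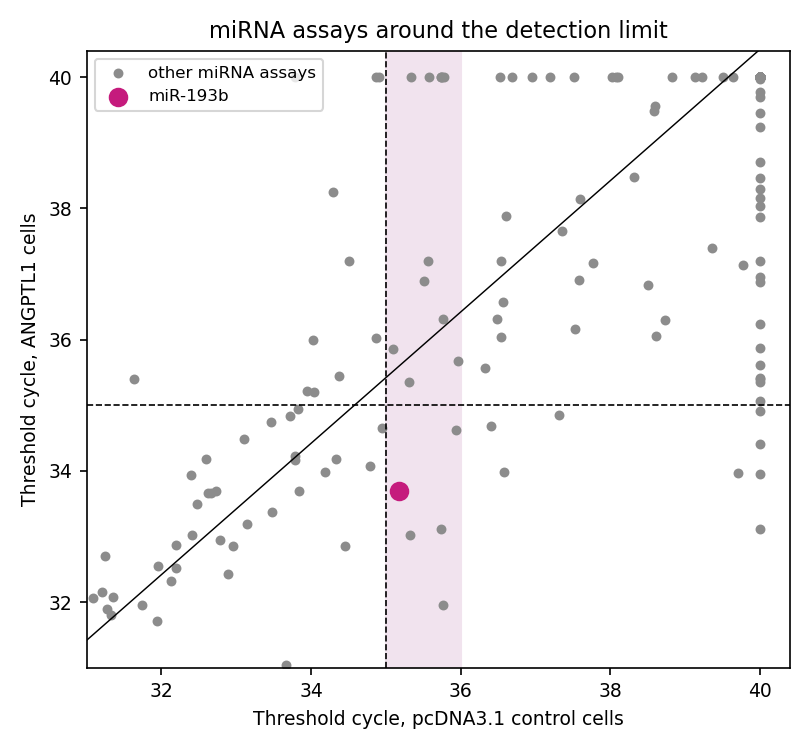
Threshold cycles of miRNA assays at the late end of the card, ANGPTL1 cells on the vertical axis and control cells on the horizontal axis, with dashed lines at the detection limit of 35 and a diagonal where the ratio relative to RNU48 is 1. The shaded band holds the 17 miRNAs with a control cycle from 35 to 36, which spread from 31.95 to 40 in ANGPTL1 cells, with miR-193b at 33.70.

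To set the partners beside other pairs, miRNAs described as lying near each other in the genome were listed in pairs from general knowledge. Positions, and whether an assay sums several loci, were not checked, and the listed miR-301 and miR-130b may not be neighbours. Of the 37 pairs on the card, 26 (this pair included) had both members detected in both samples. Their log2 ratios differed by 0.02 to 1.63, with a median of 0.43, and 16 of the 26 pairs differed by 0.5 or less. Over all 10440 combinations of miRNAs detected in both samples the median difference was 0.59. Several pairs share a miRNA, so they are not independent. miR-193a and miR-365 differed by 0.16, and 5 of the 26 pairs were closer. The shares of the 10440 combinations within 0.16 or 0.5 were not counted, so no common movement is read from either count. miR-193b and miR-365 differed by at least 1.58, and by 1.76 from the deposited cycles. The widest of the 26 pairs, let-7a and let-7b, differed by 1.63. The 26 leave out pairs with a member detected in 1 sample alone, as miR-193b was. By the deposited cycles, miR-34b and miR-34c had log2 ratios of 6.46 and 2.03, and miR-194 and miR-215 of 0.21 and -4.67. miR-183 and miR-96 both stood at -1.55, and miR-30c and miR-30e-5p at 0.03 and -0.74. For miR-34b the control cycle was 40, and for miR-215 the ANGPTL1 cycle. Some left-out pairs thus lay further apart than 1.76. The miR-193a and miR-365 assays had nearly equal ratios. The miR-193b and miR-365 assays did not, at cycles where unrelated assays also spread widely. Because the miR-365 assay sums both loci, no ratio was measured for the miR-365 of either locus alone. A change in the share that comes from chromosome 16 could not be seen in that assay unless the total changed.

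The assays with the pair of cycles most like each miRNA were found by distance in cycles over the 2 samples, which says nothing of shared function. Nearest to miR-365 was let-7g (27.39 in ANGPTL1 cells and 26.87 in control cells, distance 0.196), then miR-342 at 0.309 and miR-99b at 0.372. Nearest to miR-193a was miR-195 (29.74 in ANGPTL1 cells and 29.41 in control cells, distance 0.11), then miR-23a at 0.141 and miR-196b at 0.277. miR-193b had more distant neighbours: let-7c (34.08 in ANGPTL1 cells and 34.79 in control cells, distance 0.545), an assay named miR-376a (number 4373026) at 0.684 and miR-137 at 0.813. The last 2 were also detected in ANGPTL1 cells alone.

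Other miRNAs with shared described targets were mostly within 2-fold, as were the 87.6% of all 145 miRNAs detected in both samples, and nothing is read from their counts beside the 7.59% higher and 4.83% lower over the card. Of 10 miRNAs described to target CCND1, all were detected in both samples, 1 was at least 2-fold higher in ANGPTL1 cells (let-7b, log2 ratio 1.88) and 0 lower, with a median of 0.14; miR-15a stood at -0.79, miR-15b at 0.32, miR-16 at -0.36 and miR-195 at 0.09. Of 7 measured miRNAs described to target MCL1, an anti-apoptotic gene, 6 were detected in both samples and 0 were past 2-fold, with a median of -0.16; miR-29a stood at -0.05, miR-29c at -0.26, miR-101 at -0.78 and miR-125b at 0.43. Of 14 measured miRNAs linked to brown fat differentiation in mouse, 13 were detected in both samples, 1 was at least 2-fold higher (miR-155) and 1 lower (miR-93), with a median of 0.03. The median over all 145 detected miRNAs was -0.01. These lists rest on general knowledge of described targets and overlap.

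Marker miRNAs were checked for the labelled cell type. Of 6 epithelial miRNAs measured by 1 assay each, miR-200c and miR-203 were detected in both samples and 4 in neither, and no lung-specific miRNA was on the list. Of other cell types, 1 of 4 muscle miRNAs was detected in both samples, 1 of 4 blood miRNAs in control cells alone, 1 of 3 neuronal miRNAs in ANGPTL1 cells alone, and none of the 2 fibroblast markers or the liver marker in either. The neuronal one, miR-137, crossed at 33.11 in ANGPTL1 cells and 35.74 in control cells, the same way as miR-193b. The blood one, miR-142-3p (37.19 in ANGPTL1 cells and 34.51 in control cells), went the other way. So did the muscle one, miR-133b (33.70 in ANGPTL1 cells and 32.73 in control cells). The part of other cells in the miR-193b difference was not tested.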

How the data were processed

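Total RNA, 500 ng per sample, entered a multiplex reverse transcription and PCR of 40 cycles on a TaqMan low density card (Human MicroRNA Panel version 1.0), per the labels' protocols. The authors deposited the average threshold cycle and delta Ct against RNU48 (both treated here as a score), and a fold ratio of ANGPTL1 cells over control cells, per the file headers. The wells averaged, the threshold and the software are not stated there. The deposited delta Ct differed from the difference of the cycles by at most 0.01; 2 columns of relative level were not used. Groups came from the treatment label. Log2 ratios were computed from the cycles with pandas 2.3.3 under Python 3.11.15, and the code was tested on simulated data. No simulated cycle reached 35, so the detection limit and the bounds were not tested there. Ratios were counted for miRNAs below cycle 35 in both samples; a later cycle was set to 35 for a bound. Of all miRNA assays, 153 stood at cycle 40 in ANGPTL1 cells and 155 in control cells. Named were the members, RNU48, the 3 nearest assays of each member, and up to 4 detected miRNAs of each list in list order. Named after their values were seen were let-7b of the CCND1 list, miR-155, miR-93, the widest pair and the other pairs named. So were miR-200c, miR-203, miR-137, miR-142-3p and miR-133b of the marker lists. The result of 1 further list is not reported here. Names on more than 1 assay (14 names) entered no list. Members and lists were chosen with earlier results of these data known. Alternatives changed the reference, the detection limit, the bound and the fold size. With 1 sample per group no precision can be given.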

Additional observations from a re-analysis of the deposited data

How the results depend on the processing

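Sizes, the sign of miR-365 and the balance of higher and lower miRNAs depended on the reference, while miR-193b stayed past 2-fold on the higher side under each setting that gave it a value. Without RNU48 the log2 ratios were -0.44 for miR-193a, 1.30 for miR-193b and -0.28 for miR-365; with the median cycle of the detected miRNAs as reference they were -0.49, 1.25 and -0.33. A further 2 references, added after the data were seen, left them close to the reported values: -0.01, 1.73 and 0.15 with the median log2 ratio set to 0, and -0.03, 1.71 and 0.13 with the mean cycle. The median cycles were 29.20 in ANGPTL1 cells and 29.25 in control cells; the cause of the gap between these references was not tested. For miR-193b, detection below cycle 38, the deposited cycles and the authors' deposited table each gave 1.90, and the first 2 gave differences of 1.92 from miR-193a and 1.76 from miR-365. Below cycle 32, miR-193b was detected in neither sample and has no value, and 2 of the 3 assays were detected in each sample; below 38, all 3 were. The counts past 2-fold, 11 higher and 7 lower, became 6 and 2 below cycle 32, 23 and 11 below 38, 6 and 29 without RNU48, 24 and 28 at 1.5-fold and 4 and 2 at 4-fold. Leaving out a replicate was not possible. No paired analysis was possible because there is 1 sample of each kind. The control cycle of miR-193b, past the detection limit, leaves it with a bound.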
